A study of Mus musculus with 4 samples.

Results

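The cells described here are migratory dendritic cells (DCs) of the ear-draining lymph node whose transcripts included at least 1 unique molecular identifier (UMI, a captured RNA molecule) of the BFP reporter or of Tnfsf4, the gene that encodes the costimulatory ligand OX40L. A barcode, standing for 1 captured cell, was counted when it held at least 500 genes, at most 10% mitochondrial UMIs, at least 1 UMI of Fscn1 or Ccr7, no UMI of Cd3e, Cd3d, Cd3g, Cd79a or Cd79b, and at least 1 UMI of BFP or Tnfsf4, whatever its sort hashtag. The rule kept 718 of 6316 barcodes in the MC903 capture and 362 of 9520 in the untreated capture. They are called BFP/Tnfsf4+ DCs below. They were chosen by their BFP and Tnfsf4 UMIs, so those values are given as a description only. Barcodes that passed the same gate with 0 UMIs of BFP and Tnfsf4 numbered 3489 in the MC903 capture and 4729 in the untreated capture, and 3 of them were matched to each BFP/Tnfsf4+ DC on total UMIs within its capture.

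Mice of the genotype Tnfsf4KI/+, heterozygous for an OX40L-BFP reporter allele, supplied every cell of the study. Ears were painted with MC903 (calcipotriol, a vitamin D analogue used to raise the skin cytokine TSLP) on days 0, 2 and 4, or were left untreated, and the ear-draining nodes were collected on day 5. The sort took B220-, CD11c intermediate, MHC class II high cells, and for either treatment 5000 with BFP and 7000 without it carried different hashtag antibodies and were loaded together as 1 capture. The number of mice pooled is unknown here, and with 1 capture per treatment no test between treatments was possible.

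OX40L is a membrane-bound ligand of the tumour necrosis factor (TNF) family. It engages the receptor OX40 on recently activated T cells, where it supports their survival and their help to other cells. Skin DCs are known to raise OX40L when they sense TSLP, and migratory DCs carry antigen from skin to the draining node with the help of the chemokine receptor Ccr7, while Fscn1 encodes the actin-bundling protein fascin of their dendrites.

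The sort on BFP protein reached the data through hashtag oligonucleotides, a readout that the transcript rule did not use. Each oligonucleotide is carried by an antibody to surface proteins found on all the sorted cells, and the whole 15-base barcode is read, so all its letters are in capitals. They are printed in 5′ to 3′ direction, as deposited, because they are the only record of which sorted fraction a barcode came from.
Hashtag 3, MC903, BFP+ cells: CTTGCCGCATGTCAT
Hashtag 4, MC903, BFP- cells: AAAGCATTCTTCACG
Hashtag 1, untreated, BFP+ cells: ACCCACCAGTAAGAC
Hashtag 2, untreated, BFP- cells: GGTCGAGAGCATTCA

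The MC903 capture held 57148072 gene UMIs and the untreated capture 33525154. BFP/Tnfsf4+ DCs had a median of 12060.5 UMIs in the MC903 capture, against 11151 in their matched barcodes. The untreated medians were 3354.5 in BFP/Tnfsf4+ DCs and 3355.5 in their matched barcodes. The captures shared 23 barcode sequences, 0 of them among the BFP/Tnfsf4+ DCs. Gene levels are UMIs summed over the barcodes of a set and scaled to that set's total as CPM, log2 ratios set BFP/Tnfsf4+ DCs over matched barcodes unless stated otherwise, and the values in brackets are exact 95% intervals, which cover counting error only and not differences between mice or captures.

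Fscn1 and Ccr7 were both detected in 98.9% of BFP/Tnfsf4+ DCs of the MC903 capture and in 94.2% of those of the untreated capture. All 9 genes of the migratory DC list were detected. Their sum, leaving out Fscn1 and Ccr7, was 9779 CPM in BFP/Tnfsf4+ DCs and 8730 CPM in matched barcodes after MC903, and 7510 CPM in BFP/Tnfsf4+ DCs and 6306 CPM in matched barcodes in untreated mice. Clustering without the rule's genes placed 26 of the 718 MC903 barcodes and 32 of the 362 untreated barcodes in clusters led by genes of other lineages or of salivary glands. For untreated mice these were 15 barcodes in an NK and innate lymphoid-like cluster (Gzma, Il2rb), 7 in a monocyte and macrophage-like cluster (C1qa, Apoe), 7 in a proliferating cluster with B cell markers that was left unnamed, and 3 in a neutrophil-like cluster (S100a8, S100a9). In that order, these clusters held 4.14%, 1.93%, 1.93% and 0.829% of untreated BFP/Tnfsf4+ DCs. They held 3.31%, 2.95%, 2.21% and 0.737% of the untreated matched barcodes. In the MC903 capture 22 of the 26 lay in a cluster led by the salivary genes Chia1, Bpifa2 and Amy1. That cluster held 3.06% of BFP/Tnfsf4+ DCs and 2.09% of matched barcodes after MC903. Matched barcodes thus lay in such clusters as well, and the differences were not tested. No doublet caller was run.

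After MC903, 718 of 4207 gated barcodes held a BFP or Tnfsf4 UMI, a share of 17.1% (15.9 to 18.2). The untreated capture had 362 of 5091, a share of 7.11% (6.42 to 7.85). The captures differ in depth, so each barcode was also thinned to 2000 UMIs, which left out 51 shallower barcodes after MC903 and 971 in untreated mice. The thinned share was 6.62% (5.88 to 7.42) after MC903 and 4.68% (4.06 to 5.37) in untreated mice. Treatment, capture and sequencing lane cannot be told apart. The sort set the ratio of BFP+ to BFP- cells loaded, so the share is one of a sorted mixture. Read by hashtag, the gated barcodes differed between captures. A dominant BFP+ hashtag, as defined below, was carried by 30.4% after MC903 and 7.56% in untreated mice. A dominant BFP- hashtag was carried by 67.3% after MC903 and 68.2% in untreated mice. Hashtags were mixed in 2.28% after MC903 and 24.3% in untreated mice. The part of this makeup in the difference between the shares was not tested.

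B and T cells captured beside the DCs gave a background for UMIs of either gene, and whether those UMIs were stray was not tested. B cell barcodes held such a UMI in 1 of 336 cases after MC903 (median 3175 UMIs) and in 5 of 183 in untreated mice (median 3337 UMIs). The 1 B cell barcode of the MC903 capture held 3 BFP UMIs, and the 5 untreated ones held 8. T cell barcodes held a UMI of either gene in 1 of 204 cases after MC903 (median 4635.5 UMIs) and in 3 of 192 in untreated mice (median 3316.5 UMIs). At 2000 UMIs none of 322 B cell barcodes of the MC903 capture had one, which allows a share of up to 0.932% by a limit of 3 counts and 1.14% by the exact interval, and 1 of 151 did in the untreated capture, a share of 0.662% (0.0168 to 3.63). Gated barcodes with a dominant BFP- hashtag stood at 2.00% (1.52 to 2.59) after MC903 and 2.28% (1.76 to 2.90) in untreated mice at that depth. T cell barcodes at 2000 UMIs had one in 0 of 198 cases after MC903, with an exact upper limit of 1.85%, and in 1 of 125 in untreated mice, a share of 0.800% (0.0203 to 4.38). The intervals of the BFP- fraction overlap the T cell interval of their capture, and the untreated one also the B cell interval. After MC903 the interval of the BFP- fraction lay above the B cell limit of 1.14%. The share of that fraction could thus not be set apart from the T cell background in either capture, nor from the B cell background in untreated mice. Whether the transcript in a single barcode of that fraction was stray was not tested.

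**Figure D1:**
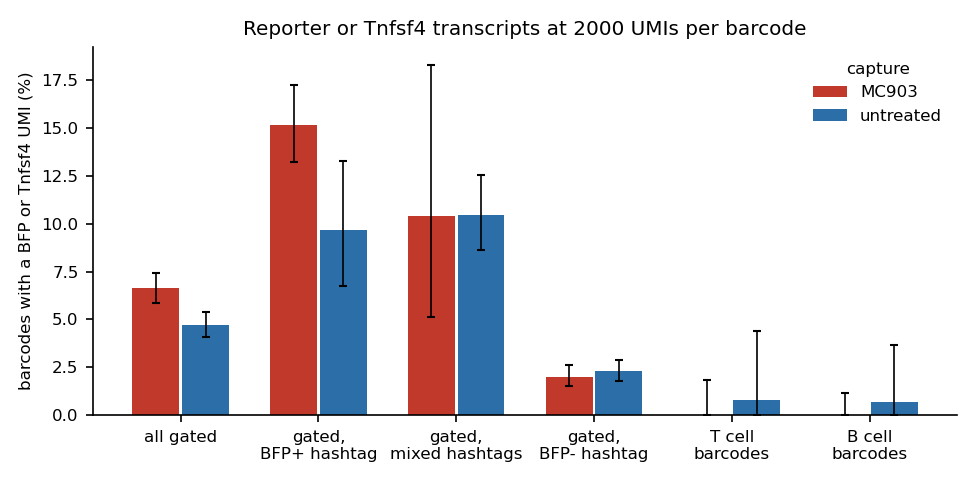
Share of barcodes with a BFP or Tnfsf4 UMI after thinning to 2000 UMIs, for gated barcodes, gated barcodes by hashtag, and T and B cell barcodes. Bars are the MC903 capture (left of each pair) and the untreated capture, and whiskers are exact 95% binomial intervals. The BFP+ hashtag bars (15.2% after MC903, 9.65% untreated) stand above the BFP- hashtag bars (2.00% and 2.28%), and the T and B cell bars are lowest. Bars for mixed hashtags stand at 10.4% after MC903 and 10.5% untreated.

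The rule's 2 transcripts were sparse. In the MC903 capture, 344 of the BFP/Tnfsf4+ DCs sat at the threshold with 1 UMI of the pair, 172 had 2 to 3 and 202 had 4 or more, up to 51 in 1 barcode. Among untreated cells 257 had 1 UMI, 77 had 2 to 3 and 28 had 4 or more, with a highest value of 30. The barcodes just outside the rule had 0. BFP UMIs outnumbered those of Tnfsf4, with 1881 of BFP and 597 of Tnfsf4 after MC903 and 473 of BFP and 189 of Tnfsf4 in untreated mice.

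How often BFP and Tnfsf4 lay in the same barcode is again a description, drawn from the UMIs that the rule used. After MC903, Tnfsf4 was detected in 32.6% (28.8 to 36.5) of 602 gated barcodes with BFP, against 3.99% (3.13 to 4.99) of 1806 matched barcodes without BFP. The same shares in untreated mice were 18.1% (13.7 to 23.2) of 271 and 2.34% (1.41 to 3.63) of 813. Seen from the other gene, BFP was detected in 62.8% (57.2 to 68.2) of 312 barcodes with Tnfsf4 after MC903, against 12.9% (10.8 to 15.2) of 936 without it. The untreated shares were 35.0% (27.1 to 43.5) of 140 with Tnfsf4 and 4.76% (2.93 to 7.26) of 420 without it. Of all BFP/Tnfsf4+ DCs, 406 had BFP only, 116 Tnfsf4 only and 196 both after MC903. In the untreated capture 222 had BFP only, 91 Tnfsf4 only and 49 both.

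The hashtags gave the independent view of the BFP protein. A hashtag was called dominant when it made up at least 80% of at least 10 counts. After MC903, 473 of 718 BFP/Tnfsf4+ DCs carried a dominant BFP+ hashtag, a share of 65.9% (62.3 to 69.3), against 494 of 2154 matched barcodes, 22.9% (21.2 to 24.8). In untreated mice the numbers were 71 of 362, 19.6% (15.6 to 24.1), against 80 of 1086, 7.37% (5.88 to 9.08). Mixed hashtags were more frequent in the untreated capture, and the cause was not tested. In the untreated capture 48.3% of BFP/Tnfsf4+ DCs and 18.7% of matched barcodes had mixed hashtags, compared with 5.15% of BFP/Tnfsf4+ DCs and 2.27% of matched barcodes after MC903. Measured without a threshold, the median BFP+ hashtag share was 97.8% in BFP/Tnfsf4+ DCs and 0.605% in matched barcodes after MC903, and 38.1% in BFP/Tnfsf4+ DCs and 4.18% in matched barcodes in untreated mice.

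More transcripts went with more BFP+ hashtags. After MC903 the dominant BFP+ share was 55.8% (50.4 to 61.1) at 1 UMI, 67.4% (59.9 to 74.4) at 2 to 3 UMIs and 81.7% (75.6 to 86.8) at 4 or more. Over the same classes the untreated shares were 13.6% (9.67 to 18.4), 26.0% (16.6 to 37.2) and 57.1% (37.2 to 75.5). Barcodes with both transcripts had it in 81.1% after MC903 and 36.7% in untreated mice, and barcodes with Tnfsf4 only in 44.0% after MC903 and 20.9% in untreated mice. Median total UMIs were also higher in each further class, at 10792, 11924 and 13948.5 after MC903 and 2966, 4246 and 9086.5 in untreated mice.

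**Figure D2:**
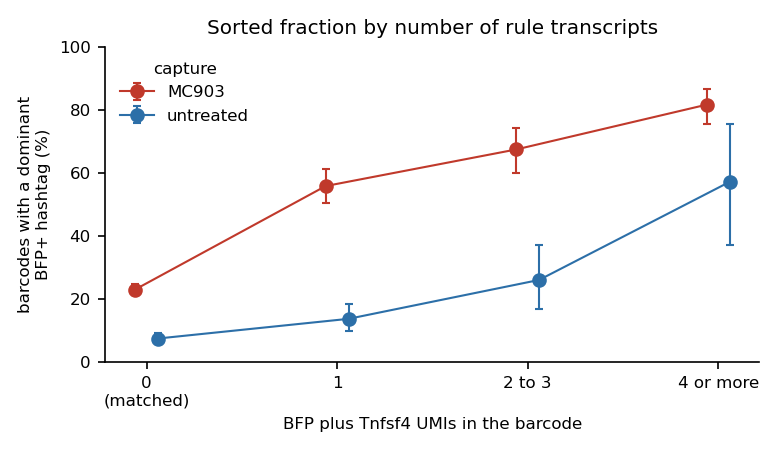
Share of barcodes with a dominant BFP+ hashtag (vertical axis, percent) by the number of BFP plus Tnfsf4 UMIs in the barcode, from 0 (matched barcodes) to 4 or more, in each capture. Points are shares and whiskers exact 95% binomial intervals. The MC903 points run from 22.9% to 81.7% and the untreated points from 7.37% to 57.1%.

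Genes were next compared between BFP/Tnfsf4+ DCs and their matched barcodes. A gene was called apart at a 1.5-fold ratio with at least 50 CPM on the higher side, a rule of size and not a test. In the MC903 capture 75 of 2501 genes were called higher in BFP/Tnfsf4+ DCs (3.00%) and 91 lower (3.64%). In the untreated capture 97 of 2594 were called higher (3.74%) and 96 lower (3.70%). Scaling by the trimmed mean of M values (TMM) changed the untreated split to 138 higher and 63 lower. Of the 2348 genes that could be called in both captures, 45 were higher in both (1.92%), 39 were lower in both (1.66%), 0 went past 1.5-fold in opposite directions, and 1664 (70.9%) had the same sign. Matching within clusters reduced the MC903 counts to 47 higher and 58 lower and the untreated count of higher genes to 53.

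**Figure D3:**
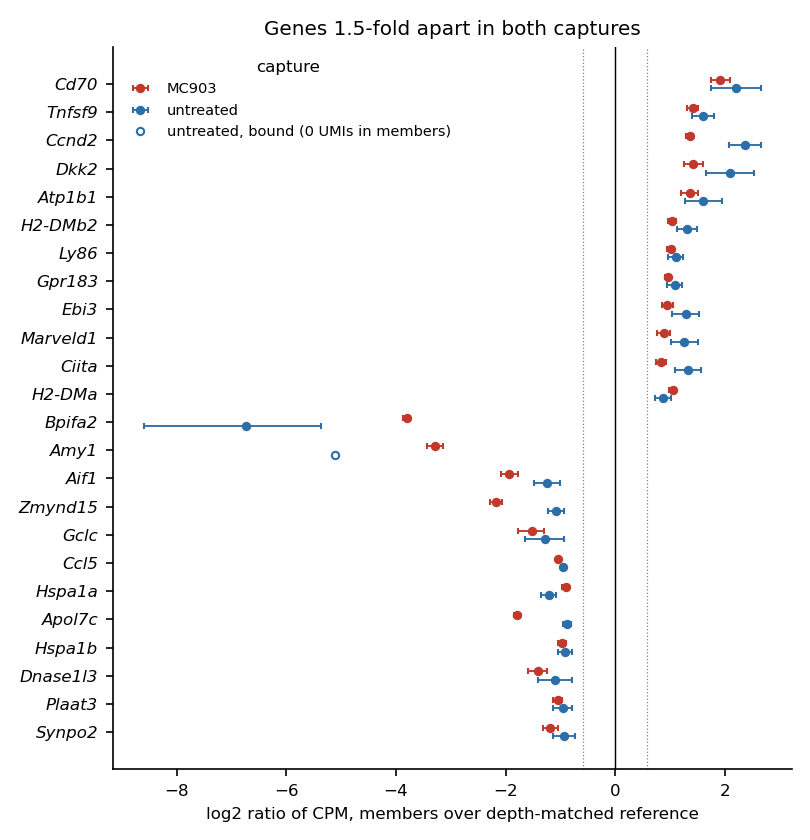
Log2 ratio of CPM, BFP/Tnfsf4+ DCs over depth-matched barcodes (horizontal axis), for the 12 genes higher and 12 genes lower in both captures that ranked first, MC903 above untreated in each row. Whiskers are exact 95% intervals for 2 Poisson counts, dotted lines mark 1.5-fold, and the open circle is a bound for Amy1, which had 0 UMIs in untreated BFP/Tnfsf4+ DCs. Cd70 leads the higher genes at 1.92 after MC903 and 2.20 in untreated mice, and the 2 salivary genes Bpifa2 and Amy1 lie far left.

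Cd70 and Tnfsf9, ligands of the same TNF family, were the genes highest with the reporter by the ranking used. Cd70, the ligand of the T cell receptor protein CD27 (chromosome 17 of GRCm38, 57145997 to 57149777, minus strand), was at 73.4 CPM in BFP/Tnfsf4+ DCs and 19.4 CPM in matched barcodes after MC903, a log2 ratio of 1.92 (1.75 to 2.09). In the untreated capture Cd70 was at 58.3 CPM in BFP/Tnfsf4+ DCs and 12.6 CPM in matched barcodes, a log2 ratio of 2.20 (1.75 to 2.66), so it was higher in both captures by more than counting error. Tnfsf9, the ligand of the costimulatory receptor Tnfrsf9 and encoded nearby (chromosome 17, 57105325 to 57107757, plus strand), was at 165 CPM in BFP/Tnfsf4+ DCs and 62.0 CPM in matched barcodes after MC903, a log2 ratio of 1.41 (1.31 to 1.52). The untreated capture had 225 CPM in BFP/Tnfsf4+ DCs and 74.0 CPM in matched barcodes for Tnfsf9, a log2 ratio of 1.60 (1.40 to 1.81). Both ligands were also found in more of the cells. At 2000 UMIs per barcode Cd70 was detected in 10.3% of BFP/Tnfsf4+ DCs and 2.70% of matched barcodes after MC903, and in 7.59% of BFP/Tnfsf4+ DCs and 2.22% of matched barcodes in untreated mice. Tnfsf9 was detected in 19.3% of BFP/Tnfsf4+ DCs and 6.74% of matched barcodes after MC903, and in 19.9% of BFP/Tnfsf4+ DCs and 10.1% of matched barcodes in untreated mice.

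The B7 ligands of CD28 were higher too. Cd80 was at 346 CPM in BFP/Tnfsf4+ DCs and 205 CPM in matched barcodes after MC903, a log2 ratio of 0.76 (0.69 to 0.82). Untreated BFP/Tnfsf4+ DCs had 211 CPM of Cd80 and their matched barcodes 65.0 CPM, a log2 ratio of 1.70 (1.49 to 1.91). The intervals of the 2 captures do not overlap, although the difference between captures was not tested. Cd86 was at 776 CPM in BFP/Tnfsf4+ DCs and 490 CPM in matched barcodes after MC903, a log2 ratio of 0.66, and at 327 CPM in BFP/Tnfsf4+ DCs and 156 CPM in matched barcodes in untreated mice, a log2 ratio of 1.07. Cd200, a ligand that restrains myeloid cells, had a log2 ratio of 0.71 after MC903 and 1.30 in untreated mice.

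Of the 14 costimulatory and checkpoint ligands listed, 8 reached 50 CPM, and 5 of them were called higher after MC903 (3.00% over all genes) and 6 in untreated mice (3.74% over all genes), with 0 called lower. Their median log2 ratio was 0.68 after MC903, beside -0.01 over all genes tested, and 1.18 in untreated mice, beside -0.03 over all genes tested. Cd274, which encodes the inhibitory ligand PD-L1, was called in the untreated capture with a log2 ratio of 0.73 and had 0.25 after MC903. Cd40, the receptor through which T cells license DCs, was called in neither, at -0.19 after MC903 and -0.11 in untreated mice. Tnfsf18, another ligand of the family, had 0 UMIs in BFP/Tnfsf4+ DCs of both captures.

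Genes of MHC class II presentation, which loads peptides for CD4 T cells, were called higher and never lower. Of the 11 genes listed, 10 reached 50 CPM, and 4 were called higher after MC903 (3.00% over all genes) and 7 in untreated mice (3.74% over all genes), with median log2 ratios of 0.50 after MC903 and 0.66 in untreated mice. Ciita, the transactivator that switches the class II genes on (chromosome 16, 10480059 to 10528418, plus strand), was at 161 CPM in BFP/Tnfsf4+ DCs and 89.8 CPM in matched barcodes after MC903, a log2 ratio of 0.84 (0.75 to 0.94). The untreated capture had 152 CPM of Ciita in BFP/Tnfsf4+ DCs and 60.6 CPM in matched barcodes, a log2 ratio of 1.33 (1.10 to 1.56). The peptide-editing chain H2-DMa had log2 ratios of 1.05 after MC903 and 0.88 in untreated mice, its partner chain H2-DMb2 had 1.04 after MC903 and 1.31 in untreated mice, and the modulator chain H2-Oa had 0.90 after MC903 and 0.89 in untreated mice. The abundant antigen-presenting chain H2-Aa had smaller ratios, of 0.42 after MC903 and 0.69 in untreated mice. H2-DMb1 and H2-DMb2 are near copies, so reads shared between them could have been counted for either. H2-Eb2 did not differ by more than counting error in either capture, with 0.02 (-0.09 to 0.13) after MC903 and 0.11 (-0.10 to 0.31) in untreated mice.

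Genes of MHC class I presentation, which serves CD8 T cells, had no calls. For the 11 listed genes 0 calls is near the share over all genes (3.00% higher and 3.64% lower after MC903, 3.74% higher and 3.70% lower in untreated mice). Their median log2 ratio was -0.28 after MC903, beside -0.01 over all genes tested, and -0.13 in untreated mice, beside -0.03 over all genes tested. B2m, the light chain of class I molecules, was at 3904 CPM in BFP/Tnfsf4+ DCs and 4834 CPM in matched barcodes after MC903, and at 4557 CPM in BFP/Tnfsf4+ DCs and 5298 CPM in matched barcodes in untreated mice. Tapbp, the bridge between class I molecules and the peptide transporter, had log2 ratios of -0.51 (-0.57 to -0.44) after MC903 and -0.30 (-0.44 to -0.17) in untreated mice.

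The other genes that ranked first among the higher ones have varied roles. Ccnd2, which encodes the cell cycle protein cyclin D2, was at 376 CPM in BFP/Tnfsf4+ DCs and 147 CPM in matched barcodes after MC903, a log2 ratio of 1.36 (1.29 to 1.43). Untreated BFP/Tnfsf4+ DCs had 149 CPM of Ccnd2 and matched barcodes 28.8 CPM, a log2 ratio of 2.37 (2.08 to 2.66), and 1 barcode held 17.9% of the 273 UMIs of the DCs. The 8 proliferation markers listed summed to 95 CPM in BFP/Tnfsf4+ DCs and 81.9 CPM in matched barcodes after MC903, and to 91.5 CPM in BFP/Tnfsf4+ DCs and 123 CPM in matched barcodes in untreated mice.

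Dkk2, a secreted modulator of Wnt signalling, had log2 ratios of 1.42 (1.25 to 1.60) after MC903 and 2.09 (1.66 to 2.53) in untreated mice. Atp1b1, a subunit of the sodium pump, had 1.36 (1.21 to 1.51) after MC903 and 1.61 (1.28 to 1.94) in untreated mice. Ly86, the partner of the Toll-like receptor relative Cd180, had 1.02 after MC903 and 1.10 in untreated mice. Gpr183, an oxysterol receptor that positions immune cells in lymphoid tissue, was at 613 CPM in BFP/Tnfsf4+ DCs and 316 CPM in matched barcodes after MC903, and at 401 CPM in BFP/Tnfsf4+ DCs and 189 CPM in matched barcodes in untreated mice. Ebi3, a shared subunit of heterodimeric cytokines such as IL-27, had log2 ratios of 0.95 after MC903 and 1.29 in untreated mice, and Marveld1, a membrane protein gene, had 0.88 after MC903 and 1.26 in untreated mice.

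Among the lower genes the chemokine Ccl5, which attracts T cells and monocytes, was the most abundant. Its level was 3454 CPM in BFP/Tnfsf4+ DCs and 7149 CPM in matched barcodes after MC903, a log2 ratio of -1.05 (-1.07 to -1.03). The untreated capture had 5811 CPM of Ccl5 in BFP/Tnfsf4+ DCs and 11285 CPM in matched barcodes, a log2 ratio of -0.96 (-0.99 to -0.93), which became -0.19 when barcodes were matched within clusters. Zmynd15, a zinc finger protein gene, was at 90.8 CPM in BFP/Tnfsf4+ DCs and 410 CPM in matched barcodes after MC903, and at 249 CPM in BFP/Tnfsf4+ DCs and 528 CPM in matched barcodes in untreated mice. Apol7c, of the apolipoprotein L family, was at 404 CPM in BFP/Tnfsf4+ DCs and 1396 CPM in matched barcodes after MC903, a log2 ratio of -1.79 (-1.84 to -1.74). Untreated levels of Apol7c were 1227 CPM in BFP/Tnfsf4+ DCs and 2254 CPM in matched barcodes, a log2 ratio of -0.88 (-0.94 to -0.81).

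Aif1, an actin-binding protein gene of the myeloid lineage, had log2 ratios of -1.93 after MC903 and -1.24 in untreated mice, and Synpo2, another actin-binding protein gene, had -1.18 after MC903 and -0.94 in untreated mice. Gclc, the catalytic subunit of the first enzyme of glutathione synthesis, had -1.52 after MC903 and -1.28 in untreated mice. The untreated Gclc ratio was under 1.5-fold with 1 matched barcode per cell and with matching within clusters, and was -0.17 at its smallest. Dnase1l3, a secreted DNase of myeloid cells, had -1.42 after MC903 and -1.09 in untreated mice, and the phospholipase gene Plaat3 had -1.05 after MC903 and -0.95 in untreated mice. Untreated Dnase1l3 was under 1.5-fold with matching within clusters or within hashtag class, and was -0.4 at its smallest. Untreated Plaat3 was at -0.52 with matching within clusters. The inducible heat shock gene Hspa1a had -0.90 after MC903 and -1.21 in untreated mice, and Hspa1b had -0.97 after MC903 and -0.92 in untreated mice, and the pair are near copies, so reads could have been counted for either. Untreated Hspa1b was at -0.52 with matching within hashtag class. Heat shock and immediate early genes can be induced while cells are isolated. Of the 14 such genes at 50 CPM or more, 2 were called lower and 1 higher after MC903, and 4 were called lower and 0 higher in untreated mice. Over all genes, 3.64% were called lower and 3.00% higher after MC903, and 3.70% lower and 3.74% higher in untreated mice.

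The low ratios of the salivary genes Bpifa2 and Amy1 rest on single matched barcodes. Bpifa2 had a log2 ratio of -3.81 after MC903 and -6.73 in untreated mice, but 1 matched barcode held 92.4% of the matched UMIs of the MC903 capture and 1 held 99.2% of those of the untreated capture. For Amy1 a single matched barcode held 90.5% after MC903 and 100% in untreated mice. Without mixed hashtags and the deepest 2% of barcodes the Bpifa2 log2 ratio was 0.04 after MC903, and 1.58 (-2.20 to 5.37) in untreated mice, where 2 UMIs were left in the DCs. Amy1 was at 0.30 after MC903 by the same alternative. The amylase genes are also near copies of each other.

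Most of the ratios were larger in size where the DCs had more BFP and Tnfsf4 UMIs. The 12 higher and 12 lower genes were ranked on these same cells, so their counts in any subset describe the cells and test nothing. For each class, 3 barcodes per cell were matched anew on depth, and the classes draw on the same pool of matched barcodes. All 12 of the higher genes had a larger log2 ratio at 4 or more UMIs than at 1 UMI in both captures, and 11 of 12 after MC903 and 10 of 12 in untreated mice were in order over all 3 classes. Of the 12 lower genes, 10 were lower still at 4 or more UMIs in each capture, but 7 of 12 after MC903 and 9 of 12 in untreated mice were in order over all 3 classes. Tnfsf9 had log2 ratios of 0.43, 0.83 and 1.79 at 1, 2 to 3, and 4 or more UMIs after MC903, and of 0.49, 2.19 and 3.33 in untreated mice. Cd70 had 1.40, 1.62 and 2.37 after MC903 and 1.39, 2.66 and 3.91 in untreated mice. Ccl5 had -0.62, -0.98 and -1.52 after MC903 and -0.61, -1.19 and -1.77 in untreated mice. The barcodes with 1 UMI make up 47.9% of the BFP/Tnfsf4+ DCs after MC903 and 71.0% in untreated mice, and in them the 12 higher genes had a median log2 ratio of 0.69 after MC903 and 0.88 in untreated mice. The top class of the untreated capture holds 28 barcodes, so its intervals are wide.

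**Figure D4:**
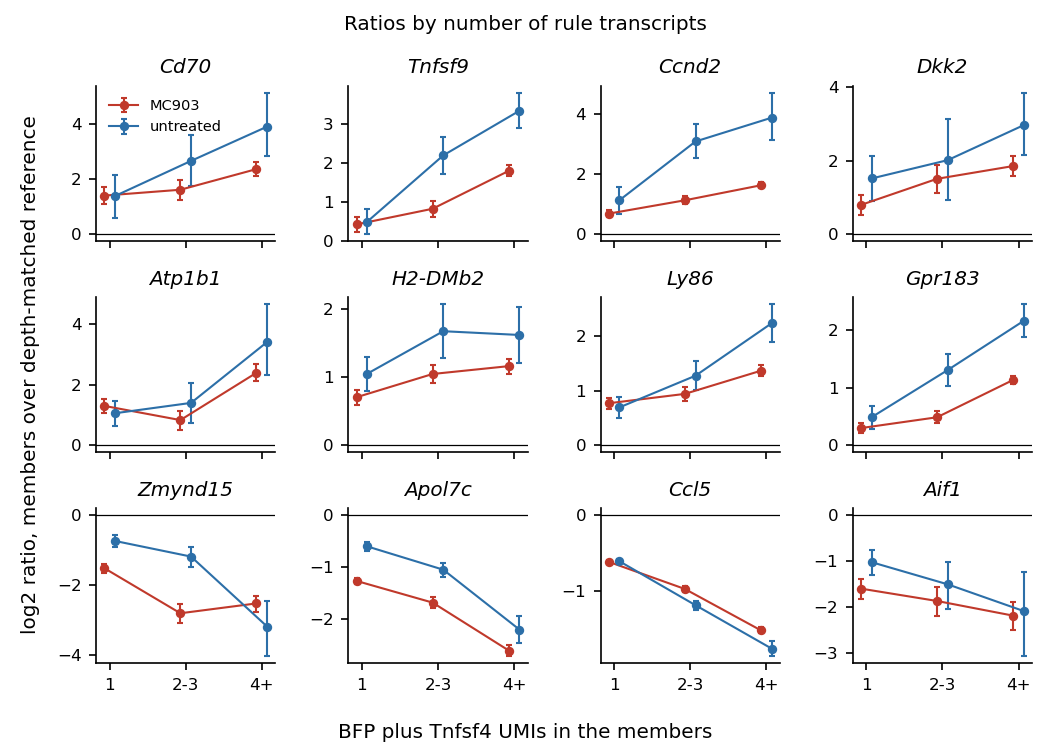
Log2 ratios of 8 higher genes (2 upper rows) and 4 lower genes (bottom row), BFP/Tnfsf4+ DCs over depth-matched barcodes, by the number of BFP plus Tnfsf4 UMIs in the BFP/Tnfsf4+ DCs. Whiskers are exact 95% intervals for 2 Poisson counts, and vertical scales differ between panels. Tnfsf9 goes up in steps to 1.79 after MC903 and 3.33 in untreated mice, while Ccl5 goes down to -1.52 and -1.77.

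The 12 higher genes were also read separately by which transcript a barcode held. With BFP only, all 12 higher genes were above 0 in both captures, at a median log2 ratio of 0.88 after MC903 and 1.05 in untreated mice. With Tnfsf4 only, they were also all above 0, at 0.63 after MC903 and 1.17 in untreated mice, and Cd70 had 1.31 after MC903 and 1.88 in untreated mice. With both transcripts the medians were 1.33 after MC903 and 2.07 in untreated mice. The matched barcodes of these classes overlap, so their values stand side by side without a test.

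Matching 1 barcode per cell within the same hashtag class asked whether the genes still differed among cells of 1 sorted fraction. Among barcodes with a dominant BFP+ hashtag (473 after MC903, 71 untreated), all 12 higher genes were above 0 with intervals that left out 0 in both captures. Among barcodes with a dominant BFP- hashtag (208 after MC903, 116 untreated), all 12 were above 0, and the intervals left out 0 for 12 after MC903 and 11 in untreated mice. Barcodes with mixed hashtags (37 after MC903, 175 untreated) also had all 12 above 0, and the intervals left out 0 for 11 after MC903 and 9 in untreated mice. Of the 12 lower genes, 10 had intervals below 0 after MC903 in each of the BFP+, BFP- and mixed classes. In untreated mice these numbered 8 of 10 with a ratio in the BFP+ class, 8 of 10 in the BFP- class and 7 of 11 in the mixed class. Within the BFP+ fraction Cd70 had log2 ratios of 2.72 after MC903 and 2.83 in untreated mice, and within the BFP- fraction 1.54 after MC903 and 2.25 in untreated mice. Ccnd2 had 1.31 after MC903 and 2.60 in untreated mice within the BFP+ fraction, and 1.31 after MC903 and 2.76 in untreated mice within the BFP- fraction. The 4 class II genes compared this way differed among themselves. Within the BFP+ fraction H2-DMa had 0.65 after MC903 and 0.33 in untreated mice, H2-DMb2 had 0.47 after MC903 and 0.64 in untreated mice, and Ciita had 0.34 after MC903 and 0.37 in untreated mice. H2-Aa did not differ by more than counting error there, with 0.01 (-0.01 to 0.03) after MC903 and 0.04 (-0.01 to 0.10) in untreated mice. Within the BFP- fraction H2-DMa had 0.63 after MC903 and 0.75 in untreated mice, H2-DMb2 had 0.53 after MC903 and 1.06 in untreated mice, Ciita had 0.54 after MC903 and 0.94 in untreated mice, and H2-Aa had 0.35 after MC903 and 0.64 in untreated mice. Differences between the fractions were not tested.

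The BFP/Tnfsf4+ DCs were spread unevenly over clusters built without BFP, Tnfsf4 and the gate genes. Cluster 3, led by the Notch ligand gene Dll4, Atp1b1, Lrp8, Tesc and Dkk2, held 239 of them among 656 barcodes after MC903 and 51 among 140 in untreated mice, a share of 36.4% in each capture. Thinned to 2000 UMIs, 17.0% (14.2 to 20.1) of this cluster after MC903 and 20.5% (13.9 to 28.3) in untreated mice had a BFP or Tnfsf4 UMI, compared with 6.62% after MC903 and 4.68% in untreated mice over all gated barcodes. Cluster 5, led by Thy1, Dbn1 and Car2, had the transcripts in 174 of 722 barcodes after MC903 (24.1%) and in 10 of 38 in untreated mice. Cluster 7, led by the chemokine gene Ccl17 and Serpinb9b, had them in 75 of 337 after MC903 (22.3%) and 20 of 173 in untreated mice (11.6%). At 2000 UMIs the MC903 shares were 8.21% (6.31 to 10.5) in cluster 5 and 7.16% (4.64 to 10.5) in cluster 7. The untreated shares at that depth were 13.2% (4.41 to 28.1) in cluster 5 and 6.59% (3.33 to 11.5) in cluster 7. All of these intervals hold the share over all gated barcodes of their capture, so clusters 5 and 7 could not be set apart from it. Atp1b1, Dkk2 and Ccnd2 are themselves among the genes higher in BFP/Tnfsf4+ DCs, so these cluster shares and those ratios are not separate evidence.

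At the other end were the Langerhans cell-like cluster and cluster 6. The Langerhans cell-like cluster, with Cd207 and Epcam, had a BFP or Tnfsf4 UMI in 18 of 524 barcodes after MC903 (3.44%) and in 4 of 352 in untreated mice (1.14%). Cluster 6, led by Asprv1, Laptm4b and Ifi211, had one in 14 of 407 after MC903 (3.44%) and in 0 of 177 in untreated mice, which allows a share of up to 1.69% by a limit of 3 counts and 2.06% by the exact interval. Cluster 0, led by Fxyd2, M1ap and Ehf, had 65 barcodes after MC903 and 2838 in untreated mice, and 202 of those in untreated mice held a BFP or Tnfsf4 UMI, a share of 7.12%. With 1 library per treatment, a cluster mostly of 1 capture may be that library rather than a type of cell.

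**Figure D5:**
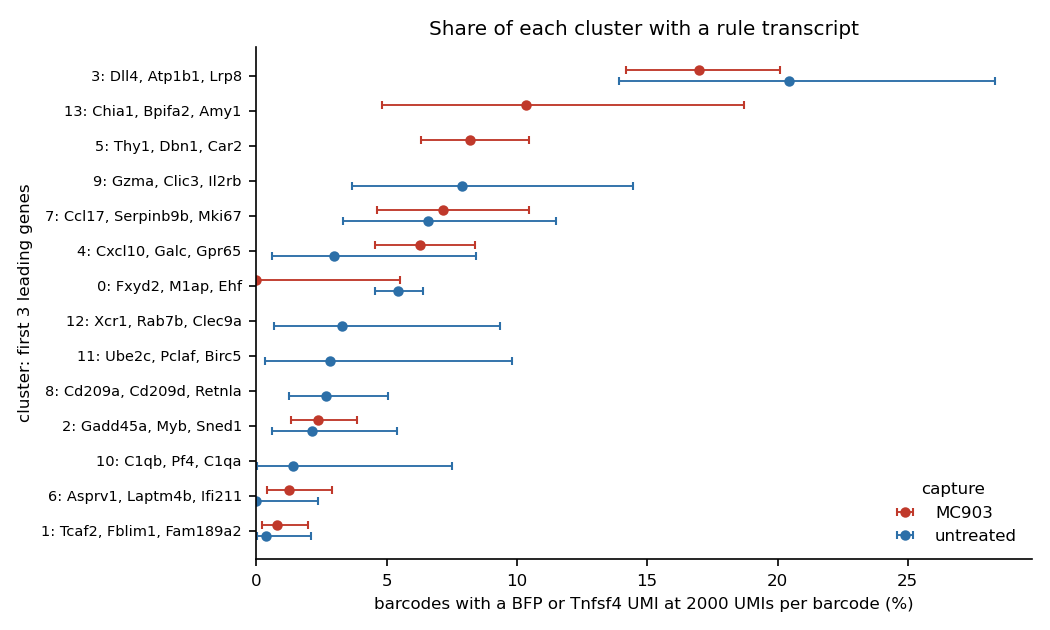
Share of each cluster's barcodes with a BFP or Tnfsf4 UMI after thinning to 2000 UMIs (horizontal axis, percent), for clusters with at least 50 barcodes in a capture, named by number and 3 leading genes. Whiskers are exact 95% binomial intervals. Cluster 3 (Dll4, Atp1b1, Lrp8) lies highest at 17.0% after MC903 and 20.5% in untreated mice, and the Langerhans cell-like cluster 1 is near 0 at 0.775% after MC903 and 0.379% in untreated mice.

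Within clusters the genes were compared again, with 1 barcode of the same cluster matched to each cell. In cluster 3 all 12 higher genes were above 0 with intervals that left out 0 in both captures, with Cd70 at 2.75 after MC903 and 1.80 in untreated mice and Tnfsf9 at 2.27 after MC903 and 1.39 in untreated mice. In cluster 5 of the MC903 capture all 12 were likewise. Cluster 4, led by Cxcl10, had 9 of 12 above 0 after MC903, and the cDC2-like cluster 8 of the untreated capture (21 cells) had 4 above 0 of the 9 with enough UMIs for a ratio, at a median of -0.01. The 12 lower genes varied more. In cluster 7 of the MC903 capture 5 of 12 were below 0, at a median of 0.09, and in cluster 4 of that capture 9 of 12 were, 4 of them with intervals that left out 0. In cluster 3, 10 of 12 were below 0 after MC903, and all 10 that had enough UMIs for a ratio in untreated mice. Tnfsf9 was near 0 in cluster 4 (0.05) and cluster 7 (0.02) after MC903 and at 0.22 in cluster 0 of untreated mice, where Cd70 was at 1.58.

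Of 14 genes of the TSLP receptor and of targets of STAT5, the factor it activates, 10 reached 50 CPM after MC903 and 8 in untreated mice. Il2ra was the only one called in either capture, at 0.60 after MC903 and 0.82 in untreated mice. A single call in so short a list cannot be told from the share called higher over all genes (3.00% after MC903, 3.74% in untreated mice). Crlf2, the TSLP-binding chain, was at 24.7 CPM in BFP/Tnfsf4+ DCs and 23.5 CPM in matched barcodes after MC903, and at 20.1 CPM in BFP/Tnfsf4+ DCs and 35.5 CPM in matched barcodes in untreated mice. These levels were under 50 CPM, so Crlf2 could not be called. Ccl22, a chemokine for T cells with the receptor Ccr4, was called in the untreated capture (0.62) and had 0.40 after MC903. Ccl17, its relative with the same receptor, was called in neither, with -0.49 after MC903 and -0.41 in untreated mice. The chemokine gene Cxcl16 was called lower after MC903 at -0.74 and had -0.36 in untreated mice. Il12b, a subunit of IL-12 and IL-23, had 0.57 after MC903 and was called in untreated mice at 1.20. The inflammatory cytokine Il1b was called lower after MC903 at -0.81 and had -0.08 in untreated mice.

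Of transcription factors, Irf4, a factor of cDC2 and migratory DCs, was called higher in both captures, at 0.65 after MC903 and 1.0 in untreated mice. It was the only cDC2 marker called higher: of the list's 4 genes at 50 CPM or more after MC903, 1 was called higher and 0 lower, at a median of -0.08, and of 5 in untreated mice 1 was called higher and 2 lower, at a median of -0.55. Cd209d, a lectin gene, was lowest in untreated mice at -1.78, and the factor Klf4 had -0.55 in both captures. Stat4, which transmits IL-12 signals, was called higher at 0.69 after MC903 and 1.75 in untreated mice. Irf8, a factor of cDC1, was called lower after MC903 (-0.78) and had -0.51 in untreated mice. Of the cDC1 list's genes at 50 CPM or more, 1 of 2 was called lower after MC903 and 0 of 3 in untreated mice, with 0 called higher. Batf3, also of that list, had -0.18 after MC903 and 0.06 in untreated mice. Zfp366, which encodes DC-SCRIPT, was called lower in both, at -0.81 after MC903 and -0.73 in untreated mice. Nfkb1 was called higher in untreated mice (0.72) and had 0.53 after MC903. Bcl2l1 was also called higher in untreated mice (0.98) and had 0.44 after MC903, and 12 of the 14 genes of the NF-kappaB list were called in neither capture. Gpr183 was the only gene of the maturation and migration list called higher in each capture, and Cxcr4, the receptor of Cxcl12, was called lower in untreated mice at -1.40 and had -0.74 after MC903. Of the cholesterol synthesis genes listed, 5 reached 50 CPM and none was called in either capture, with medians of -0.43 after MC903 and -0.25 in untreated mice. Of the interferon-stimulated genes, 1 of 4 at 50 CPM or more was called lower after MC903 (Isg15, -0.81) and 0 of 3 in untreated mice. Over all genes, 3.00% were called higher and 3.64% lower after MC903, and 3.74% higher and 3.70% lower in untreated mice. Counts of 0 or 1 in lists this short cannot be told from these shares over all genes.

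A pair of lists came from earlier results on the hashtag sort of these libraries and are not independent evidence of direction. Of the 9 genes known to be higher with the sort, 8 reached 50 CPM after MC903 and all 8 were called higher, and all 6 that reached it in untreated mice were called higher. Of the 10 known to be lower, 5 of 5 were called lower after MC903 and 4 of 5 in untreated mice. Over all genes, 3.00% were called higher and 3.64% lower after MC903, and 3.74% higher and 3.70% lower in untreated mice. Because the lists were drawn from the sort of these same libraries, their counts test nothing.

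Markers of other cells differed beside some of these genes, and their part in the results was not tested. The 2 Langerhans cell markers at 50 CPM or more, Mfge8 and Ltc4s, were called lower in both captures. All 8 Langerhans markers summed to 124 CPM in BFP/Tnfsf4+ DCs and 248 CPM in matched barcodes after MC903, and to 362 CPM in BFP/Tnfsf4+ DCs and 592 CPM in matched barcodes in untreated mice. The 11 monocyte and macrophage markers summed to 134 CPM in BFP/Tnfsf4+ DCs and 121 CPM in matched barcodes after MC903, and to 244 CPM in BFP/Tnfsf4+ DCs and 626 CPM in matched barcodes in untreated mice.

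The 7 neutrophil markers summed to 0.655 CPM in BFP/Tnfsf4+ DCs and 6.04 CPM in matched barcodes after MC903, and to 9.26 CPM in BFP/Tnfsf4+ DCs and 123 CPM in matched barcodes in untreated mice, with Retnlg, Camp and Ngp at 0 in BFP/Tnfsf4+ DCs of both captures. The 10 B cell markers summed to 34.3 CPM in BFP/Tnfsf4+ DCs and 41.2 CPM in matched barcodes after MC903, and to 338 CPM in BFP/Tnfsf4+ DCs and 446 CPM in matched barcodes in untreated mice. The 12 T cell markers summed to 183 CPM in BFP/Tnfsf4+ DCs and 135 CPM in matched barcodes after MC903, and to 244 CPM in BFP/Tnfsf4+ DCs and 213 CPM in matched barcodes in untreated mice. NK, mast cell, stromal and keratinocyte lists each summed to under 30 CPM in all 4 sets. Leaving out the clusters of other lineages and salivary genes, a choice made after the clusters were seen, gave 74 genes higher and 82 lower after MC903 and 111 higher and 90 lower in untreated mice.

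The contrast of some genes differed between the captures, and the difference was not tested. Lyz2, a lysozyme gene of macrophages and monocytes, was at 104 CPM in BFP/Tnfsf4+ DCs and 74.0 CPM in matched barcodes after MC903, a log2 ratio of 0.49, and 1 barcode held 40.0% of the 950 UMIs of BFP/Tnfsf4+ DCs. Untreated Lyz2 was at 162 CPM in BFP/Tnfsf4+ DCs and 422 CPM in matched barcodes, a log2 ratio of -1.39. Apoe had 0.54 after MC903 and -1.31 in untreated mice, and the untreated value was 0.40 without the clusters of other lineages. The nuclear receptor gene Nr4a1, induced early after stimulation, was at 52.7 CPM in BFP/Tnfsf4+ DCs and 21.6 CPM in matched barcodes after MC903, a log2 ratio of 1.28, and at 60.4 CPM in BFP/Tnfsf4+ DCs and 53.7 CPM in matched barcodes in untreated mice, a log2 ratio of 0.17. Cd80, Stat4 and Ccnd2 were the other way round, with larger log2 ratios in untreated mice.

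BFP/Tnfsf4+ DCs of the MC903 capture were also set against those of the untreated capture, a comparison in which treatment cannot be told apart from capture, lane and depth. Of 2562 genes, 129 were called higher after MC903 (5.04%) and 121 lower (4.72%), and TMM scaling gave 186 higher and 92 lower. Thy1, a surface protein gene better known from T cells, was at 148 CPM in BFP/Tnfsf4+ DCs after MC903 and 28.9 CPM in those of untreated mice, a log2 ratio of 2.36 (1.96 to 2.78). The same ratio in the matched barcodes was 2.89. Cish, a feedback inhibitor induced by STAT5, was at 50.1 CPM after MC903 and 7.08 CPM in untreated mice, a log2 ratio of 2.82 (2.04 to 3.75), beside 3.29 in matched barcodes. Pkib, an inhibitor of protein kinase A, had 2.23, the myosin kinase gene Mylk 2.49, the adhesion gene Jaml 1.87, Hopx 1.76 and the phospholipase gene Pla1a 1.52, and matched barcodes had between 1.46 (Jaml) and 2.82 (Mylk) for these 5. Thy1, Hopx and Pla1a were also higher in BFP/Tnfsf4+ DCs than in matched barcodes of the same capture, with log2 ratios of 2.31 (Thy1), 1.01 (Hopx) and 1.52 (Pla1a) after MC903 and of 2.84 (Thy1), 1.72 (Hopx) and 2.69 (Pla1a) in untreated mice, although in untreated mice they stayed under 50 CPM.

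Genes lower after MC903 included Fxyd2, a regulator of the sodium pump, at 32.9 CPM in BFP/Tnfsf4+ DCs after MC903 and 214 CPM in those of untreated mice, a log2 ratio of -2.70 (-2.92 to -2.48), beside -2.01 in matched barcodes. Clu, which encodes the chaperone clusterin, had -2.46, the calmodulin-like gene Calm4 -2.04, the neutrophil chemokine gene Cxcl1 -1.85 and Fgl2 -1.98. H2-M2, a non-classical class I gene, was at 328 CPM in BFP/Tnfsf4+ DCs after MC903 and 991 CPM in those of untreated mice. Mfge8 had -1.73, Ltc4s, the leukotriene C4 synthase gene, -1.67, Ramp1 -1.79 and Apol7c -1.60. All 10 of these genes were also lower after MC903 in the matched barcodes, by log2 ratios between -0.69 (Apol7c) and -2.11 (Clu). Whether the treatment ratio differs between BFP/Tnfsf4+ DCs and matched barcodes was not tested.

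Some genes with high MC903 ratios rest on a single barcode or on few untreated UMIs. Retnla had 671 UMIs in BFP/Tnfsf4+ DCs after MC903, of which 1 barcode held 99.6%, and its log2 ratio over untreated BFP/Tnfsf4+ DCs of 4.49 became -2.16 (-6.43 to 3.72) without mixed hashtags and the deepest 2% of barcodes, where 2 UMIs were left. The salivary genes Bpifa2 and Smr3a had log2 ratios of 6.44 and 5.76 over untreated BFP/Tnfsf4+ DCs, each with 4 UMIs there. After MC903 Bpifa2 was detected in BFP/Tnfsf4+ DCs of several clusters, from 34.1 CPM in cluster 2 to 3913 CPM in cluster 13. Of the class II genes, 0 of 10 were called in either direction, near the share over all genes (5.04% higher, 4.72% lower), at a median log2 ratio of 0.02 beside -0.01 over all genes tested. Single members lay on both sides, with H2-DMb2 at 0.47 (0.33 to 0.62), H2-DMa at 0.36 (0.23 to 0.49) and H2-Eb2 at -0.54 (-0.74 to -0.34). Of the costimulatory ligands 3 of 8 were called higher after MC903, led by Cd86 at 1.25.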

How the data were processed

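Each capture of the 10x 3′ version 3 kit gave a gene expression and a hashtag library, so the 4 samples are 2 captures with 1 capture per treatment. The authors deposited UMI counts for every gene and hashtag in each barcode. Cell Ranger 3.1.0 made them, per the file headers, on GRCm38 (mm10), per the submitters' processing notes. Hashtag numbers and sequences come from a deposited text file.

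BFP/Tnfsf4+ DCs were chosen by the rule stated above. The cells, gene lists and the rule for named genes were chosen with earlier results of these data known. Each was matched without replacement to the 3 nearest gated barcodes in log total UMIs that lacked both transcripts. UMI counts were summed and scaled to CPM. A 0 on one side was set to a floor of 3 counts, and no ratio was given where the other side had 3 counts or fewer. Genes were called at 1.5-fold with at least 50 CPM on the higher side. Intervals are exact for 2 Poisson counts, or Clopper-Pearson for shares, and the calculation was tested on simulated data. Cells are not replicates, so no test was run and no p-value is given.

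Named genes were the 12 each way whose interval bound nearest 0 was largest in the capture where it was smaller, 5 each way that differed most between captures, 10 each way between treatments, up to 4 per list, and Ciita, Il2ra, Il1b, Ccl5, Ccl17, Ccl22, Crlf2, Cd80 and Cd86. The gate genes and families that mark cell quality, antigen receptors, red cells or sex were not eligible, nor were gene models without a name. H2-Aa, H2-Eb2, Cd40, Isg15, Klf4, Cd209d, Cxcr4, Batf3 and genes that only lead a cluster were named after their values were seen. Gene positions come from a GENCODE annotation of GRCm38. Thinned shares used 2000 UMIs per barcode.

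Clusters used scanpy 1.11.5 and leidenalg 0.10.2 on gated barcodes of both captures, with 1974 variable genes, 30 principal components, 15 neighbours and a resolution of 0.6, without batch correction. A cluster was named only with at least 3 detected markers of a listed type and 1 of them among its 10 leading genes. Doublets were treated by the gate alone, and by leaving out mixed hashtags and the deepest 2% of barcodes as an alternative. TMM factors came from edgeR 4.0.16 in R 4.3.3, and other steps ran in Python 3.11.15 with scipy 1.17.1.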

Additional observations from a re-analysis of the deposited data

Results flagged for a closer look

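The contrast of 2 genes ran in opposite directions in the 2 captures. Lyz2 had a log2 ratio of BFP/Tnfsf4+ DCs over matched barcodes of 0.49 after MC903 and -1.39 in untreated mice, and Apoe had 0.54 after MC903 and -1.31 in untreated mice. Both intervals in each capture left out 0, but the difference between captures was not tested. In the untreated capture the monocyte and macrophage-like cluster held 7 of the BFP/Tnfsf4+ DCs (1.93%) and 2.95% of the matched barcodes. Without that cluster and the other clusters of other lineages Lyz2 had -0.48 and Apoe 0.40. The part of either side in the contrast was not tested.

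Hashtags that were not used in a capture nevertheless had counts in it. The MC903 capture held 1540 counts of hashtag 1 and 7812 of hashtag 2, and the untreated capture held 159 of hashtag 3 and 30 of hashtag 4. These counts entered none of the hashtag shares.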

How the results depend on the processing

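No paired analysis was possible because each treatment has 1 capture and the labels carry no replicate numbers, and for the same reason no capture could be left out. Across 12 alternatives, 22 of the 24 named genes kept their sign after MC903 and 23 of 24 in untreated mice, and 19 after MC903 and 15 in untreated mice stayed past 1.5-fold in every alternative that gave a ratio. Gpr183 dropped to 0.49 after MC903 and 0.30 in untreated mice with matching within clusters. With at least 20 CPM as the minimum, the counts of higher and lower genes were 144 and 173 after MC903, 179 and 300 in untreated mice, and 259 and 292 between treatments. With at least 2 UMIs of BFP and Tnfsf4 the untreated counts were 224 and 277. Matching within clusters gave 47 and 58 after MC903 and 53 higher in untreated mice. Matching within hashtag class gave 60 lower after MC903, and TMM scaling 63 lower in untreated mice. Without mixed hashtags and the deepest 2%, 195 genes were higher and 217 lower between treatments.

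The untreated share of gated barcodes was 8.48% at 1000 genes or more. The difference in BFP+ hashtag share (BFP/Tnfsf4+ DCs minus matched barcodes), 42.9 percentage points after MC903, was 41.7 at 5% mitochondrial UMIs or less, 52.7 at 2 UMIs or more, 41.1 with 1 matched barcode, 38.3 within clusters and 45.9 without mixed hashtags and the deepest 2%. In untreated mice it was 12.2 points, and 17.0 at 1000 genes, 26.0 at 2 UMIs or more, 8.01 within clusters, 21.2 without mixed hashtags and the deepest 2%, and 11.1 with a dominant hashtag at 90%. The cause of these shifts was not tested, beyond the fewer barcodes or lower minimum that an alternative itself brings.

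Signs turned for few genes. Apoe in the untreated capture was 0.12 at 2 UMIs or more, 0.15 within clusters and 0.40 without the clusters of other lineages. Lyz2 between treatments was 0.90 at 2 UMIs or more. Amy1 after MC903 was 0.04 within clusters, 0.19 within hashtag class and 0.30 without mixed hashtags and the deepest 2%, where Bpifa2 was 0.04 after MC903 and 1.58 in untreated mice (2 UMIs left), and Retnla was -2.23 (-5.35 to -0.24) after MC903 and -2.16 (-6.43 to 3.72) between treatments, also from 2 UMIs.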
